A study of Mus musculus with 2 samples.

Results

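The T cells left in 2 droplet libraries of mouse mandibular lymph nodes, the nodes below the jaw that drain the head, were described. A barcode counted as a T cell when it held at least 2 raw UMIs of Cd3d, Cd3e and Cd3g together and no UMI of Pecam1, Prox1 or Cd79a. A UMI marks 1 captured RNA molecule. It also had to show no fewer than 500 detected genes, with mitochondrial UMIs making up 10% or less. This rule found 86 T cells among 22611 barcodes that passed the last 2 limits, 67 of them sham and 19 of them SAH. SAH is subarachnoid haemorrhage, bleeding into the space around the brain, modelled here by an infusion of autologous blood. Each library pooled nodes from 20 mice sampled 24 h after the operation, and strain, age and genotype are not given in the sources used here. In both libraries cells bearing CD45, the surface protein shared by white blood cells, were first removed on magnetic beads. Cells that an anti-CD31 or anti-podoplanin antibody had bound, both proteins of vessels and stroma, were then collected. The labels name the collected cells as lymphatic endothelium, so the T cells described here passed both bead steps without being their target. With 1 library per group there are no replicates and hence no tests, and each comparison is of these 2 libraries, not of the conditions. Levels are CPM, counts scaled to a total of 1000000, of the UMIs summed over the T cells of a library. Folds divide the SAH level by the sham level. Square brackets hold exact 95% intervals, which reflect counting error alone.

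T cells recognise peptides on MHC molecules through a receptor whose signal passes through the CD3 chains, and the co-receptors CD4 and CD8 divide them into helper and cytotoxic lineages. Naive T cells enter a node from the blood, follow CCR7 ligands to the T-cell zone, and leave through the lymphatic sinuses along a gradient of sphingosine 1-phosphate. Memory and effector T cells carry other homing receptors and express cytotoxic or inflammatory products, and T cells respond to interferon with a set of antiviral genes. Receptor genes of T cells were not analysed here, so clones and the gamma delta lineage could not be followed.

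In all, 13952 sham barcodes carried 72860197 UMIs, and 13766 SAH barcodes carried 78497486. Of these, 11157 sham barcodes with a median of 5039 UMIs and 11454 SAH barcodes with a median of 5747 UMIs passed the limits on genes and mitochondrial UMIs. The libraries shared 76 barcodes, none of them a T cell in either. A doublet caller marked 5.23% of sham and 6.36% of SAH barcodes, and no T cell was among them. Over the T cells the counts were 272362 sham and 86549 SAH UMIs. A sham T cell held from 1199 to 38606 UMIs with a median of 3260, and an SAH T cell from 2493 to 8700 with a median of 4185. The deepest sham cell alone held 14.2% of the sham T-cell UMIs, and some of the results that it affects are given with and without it.

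T cells made up 0.601% [0.466 to 0.762] of kept sham barcodes and 0.166% [0.0999 to 0.259] of kept SAH barcodes. This gap depended on the mitochondrial limit. The median mitochondrial share was 5.67% in sham and 4.15% in SAH T cells, and with a limit of 5% the count was 14 T cells in each library, 0.222% [0.121 to 0.372] of sham and 0.168% [0.0918 to 0.282] of SAH barcodes. With a limit of 20% there were 76 sham and 20 SAH T cells. The bead steps also set how many T cells a library could hold, so these shares are not shares of the node.

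The CD3 chains chose the cells, and their values are a description. The summed CD3 count had a median of 8 UMIs in both libraries and reached 71 in a sham cell and 27 in an SAH cell. Just inside the threshold, 2 sham cells and 1 SAH cell held exactly 2 CD3 UMIs. Just outside it, 4 sham and 3 SAH barcodes with 1 CD3 UMI met every other condition. Cd3g was detected in 64 of 67 sham and 17 of 19 SAH cells, Cd3d in 61 and 17, and Cd3e in 47 and 16. All 3 chains were present in 39 sham cells and 13 SAH cells. The plot of depth against CD3 counts shows that most cells of both libraries lie in one range and that the deepest sham cell lies far to the right of it.

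**Figure D1:**
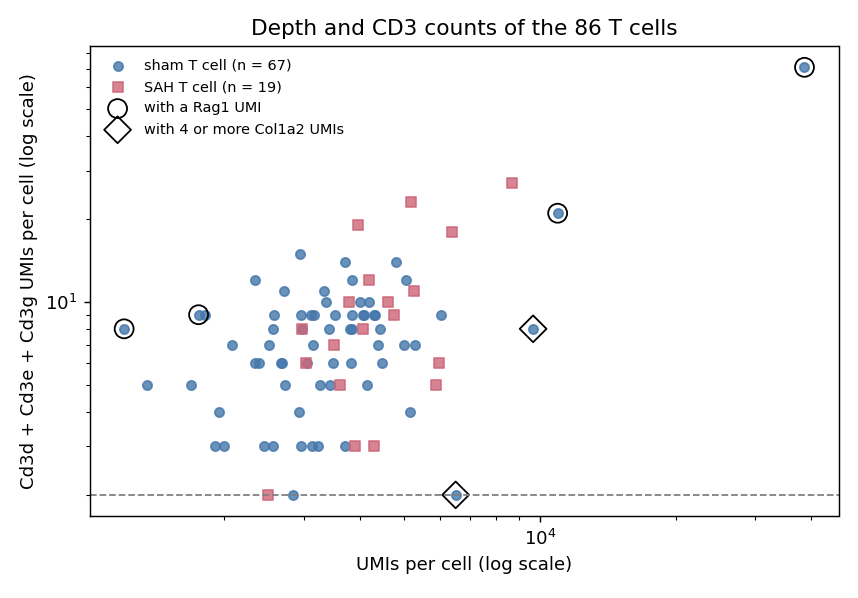
Each point is 1 T cell, with its total UMIs on the horizontal log axis and its Cd3d, Cd3e and Cd3g UMIs on the vertical log axis, for the 67 sham (circles) and 19 SAH (squares) cells. The dashed line is the threshold of 2 CD3 UMIs. Rings mark the 4 sham cells with a Rag1 UMI, the deepest of them at 38606 UMIs and 71 CD3 UMIs, and diamonds mark 2 sham cells with at least 4 Col1a2 UMIs.

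Genes that the rule did not use were also much higher in these barcodes than in the others in both libraries. Among genes of at least 100 CPM, the highest ratios over all other kept barcodes included Bcl11b, a transcription factor of T-cell identity, at 330 CPM in sham and 393 CPM in SAH T cells, against 1.54 and 0.623 CPM in the other barcodes. Il7r, the receptor for the survival cytokine interleukin 7, stood at 536 and 416 CPM against 2.71 and 1.12 CPM. Ms4a4b, a membrane protein of T cells, stood at 1021 and 1086 CPM against 5.58 and 3.29 CPM. The adaptor Lat and the costimulatory receptors Cd28 and Icos were in the same set of 15 genes, which also held Cd3d, Cd3e and Cd3g. The set was ranked on these same cells, so it describes them and does not check the label. Of the T-cell markers named with the rule but not used by it, Il7r was in 48 of 67 sham and 8 of 19 SAH cells. Cd4 or Cd8 UMIs were in some of the cells only.

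Ptprc (mm10 chr1:138062861-138175708), the gene of CD45, was present in these cells although CD45-bearing cells had been depleted. It had a UMI in 54 of 67 sham cells and in 19 of 19 SAH cells, and a single cell held from 0 to 11 UMIs (median 1) in sham and from 1 to 9 (median 4) in SAH. The libraries overlap over most of that range, and the SAH cells have no cell at 0. The Ptprc level was 474 CPM in sham and 924 CPM in SAH T cells, a fold of 1.95 [1.46 to 2.60]. Ptprcap, a protein that associates with CD45, was at 261 and 797 CPM, a fold of 3.06 [2.16 to 4.32]. In endothelial barcodes, defined by at least 2 Pecam1 UMIs and no CD3 or Cd79a UMI, Ptprc was found in 0.322% of 7777 sham and 0.517% of 8118 SAH barcodes. The transcript is not the surface protein that the beads bind.

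Of the 10 marker lists for other cell types, the neutrophil and mast cell list had no UMI in any T cell. In the B-cell list, Ms4a1, Pax5 and Cd22 were at 0 in both libraries, as were Lyz2, Itgam, Adgre1, Csf1r, Cd68 and Flt3 of the myeloid and dendritic list. Other members of that list had 321 sham UMIs in 19 cells and 16 SAH UMIs in 8 cells. Of these, Cd74 gave 173 sham UMIs in 5 cells and H2-Aa 110 in 2 cells, against 2 and 0 in SAH, and Cst3 gave 38 and 13. The deepest sham cell gave 70.4% of the sham UMIs of the myeloid and dendritic list. Without that cell the sham level of the list was 406 instead of 1179 CPM, against 185 CPM in SAH. Of the B-cell list, Ebf1 and Cd79b together were found in 4 sham cells, and Cd79b in 1 SAH cell. Salivary epithelium genes were detected in 38 sham and 7 SAH cells (the deepest sham cell gave 78.9% of the sham UMIs), mural genes in 13 and 3, plasma-cell genes in 7 and 5, and erythroid and platelet genes in 4 and 2. The innate lymphoid list, which shares Il7r with T cells, was found in 55 and 10 cells. Genes of endothelium and fibroblastic stroma were present at low levels. Of 16 endothelial markers, 12 had a UMI in sham and 11 in SAH T cells. Ackr1 and Flt4 were at 0 in both, and Pecam1 and Prox1 were at 0 because the rule required it. The summed share of the 16 markers in a cell's UMIs ran from 0 to 0.308% (median 0.0270%) in the sham library. In the SAH library it ran from 0 to 0.166% (median 0.0478%). Summed over the T cells, the endothelial list was higher in SAH, at 1.93-fold [1.34 to 2.75]. Without each library's top cell it was 1.94-fold [1.32 to 2.84]. At least 1 of its UMIs was held by 41 sham and 18 SAH T cells. The endothelial genes Cdh5 or Egfl7 were detected in 11.9% [5.30 to 22.2] of the sham T cells. In the SAH T cells that share was 42.1% [20.3 to 66.5]. Of 12 fibroblastic markers, all were found in sham and 7 in SAH T cells, with shares of 0 to 3.13% (median 0) and 0 to 0.135% (median 0.0467%). The fibroblastic list went the other way, at 0.205-fold, or 0.318-fold [0.215 to 0.455] without each library's top cell. Ccl21a, a chemokine of lymphatic and reticular stroma, was detected in 19 of 67 sham and 17 of 19 SAH T cells. Its share of endothelial barcodes was 48.1% in sham and 85.0% in SAH. The part of this background in the differences below was not tested.

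A few sham cells carried genes of the thymus, where T cells mature and rearrange their receptor genes. Rag1 (mm10 chr2:101638282-101649501), which encodes the recombinase subunit that cuts receptor genes, had a UMI in 4 sham T cells and in no SAH T cell, where a count of 0 allows a Rag1 UMI in up to 15.8% of the 19 cells (3 counts). All 4 also held UMIs of Dntt, which adds bases at receptor joints, of Arpp21 and of Cd8b1, and none held a UMI of Ccr7 or Il7r. The deepest sham cell held 14 Rag1, 17 Dntt, 15 Cd8a, 20 Cd8b1 and 3 Cd4 UMIs, and no Ptprc UMI. The same barcode held 244 UMIs of Tbata, 198 of Ccl25 and 64 of Prss16, genes of thymic cortical epithelium, and 82 UMIs of the keratin Krt8. It therefore carried markers of thymocytes and of thymic epithelium together, although the caller did not mark it as a doublet. The 4 cells held 19.3% of the sham T-cell UMIs. Over all kept barcodes, 5 sham and no SAH barcodes held at least 3 UMIs of Tbata, Prss16 and Psmb11 together, and 6 and none held at least 2 UMIs of Rag1. Without these 4 cells, 63 sham T cells remained.

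Co-receptor UMIs split the cells into Cd4, Cd8 and unassigned classes. In the sham library 10 cells had Cd4 only, 25 had Cd8a or Cd8b1 only, 2 had both and 30 had neither. In the SAH library the numbers were 4, 4, 0 and 11. Any Cd8 UMI was found in 40.3% [28.5 to 53.0] of sham and 21.1% [6.05 to 45.6] of SAH T cells, intervals that overlap. After thinning each cell to 1500 UMIs, which left out 2 sham cells, these shares were 32.3% and 10.5%. Cd8a (mm10 chr6:71373427-71379173), the alpha chain of the co-receptor, stood at 180 CPM in sham and 46.2 CPM in SAH T cells, a fold of 0.257 [0.0673 to 0.701]. Cd8b1, its beta chain, stood at 327 and 150 CPM, a fold of 0.460 [0.236 to 0.827]. A single cell held 0 to 15 Cd8a UMIs in sham and 0 to 2 in SAH, with a median of 0 in both. Cd4 did not differ beyond counting error, at 62.4 and 69.3 CPM (1.11-fold [0.359 to 2.95]). In endothelial barcodes Cd4, Cd8a and Cd8b1 each had a UMI in at most 0.0616%, so their UMIs in T cells lie far above that background. The 2 sham cells with both co-receptors were among those with Rag1, and without the 4 Rag1 cells the share with any Cd8 was 36.5%. The deepest of these 4 cells held 30.6% of the sham Cd8a and 22.5% of the sham Cd8b1 UMIs. Outside that cell the sham T cells held 34 Cd8a and 69 Cd8b1 UMIs. Of these, the next deepest Rag1 cell held 9 Cd8a and 8 Cd8b1 UMIs. The other 2 Rag1 cells each held 1 Cd8a UMI, with 4 and 3 Cd8b1 UMIs. The sham Cd8a level thus rests in large part on the 4 Rag1 cells, and the Cd8b1 level in smaller part. The folds of Cd8a and Cd8b1 without these cells were not computed.

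The Cd8 difference depended on the Pecam1 condition of the rule. Pecam1 is also the gene of CD31, the protein by which the beads collected cells. Of 159 sham and 59 SAH barcodes with at least 2 CD3 UMIs, 88 and 39 were removed for a Pecam1 UMI. Among the 28 sham and 12 SAH barcodes with exactly 1 Pecam1 UMI, any Cd8 UMI was found in 21.4% [8.30 to 41.0] and 66.7% [34.9 to 90.1], the opposite order. Among the 49 sham and 21 SAH barcodes with 2 or more, Cd8 was in 28.6% and 42.9%, but 89.8% and 76.2% of these also held Cdh5 or Egfl7, genes of endothelium. With exactly 1 Pecam1 UMI, Cdh5 or Egfl7 was found in 25.0% of the sham barcodes and 33.3% of the SAH barcodes. With none, in the T cells described here, the shares were 11.9% and 42.1%. The plot by Pecam1 count shows the 3 groups beside each other.

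**Figure D2:**
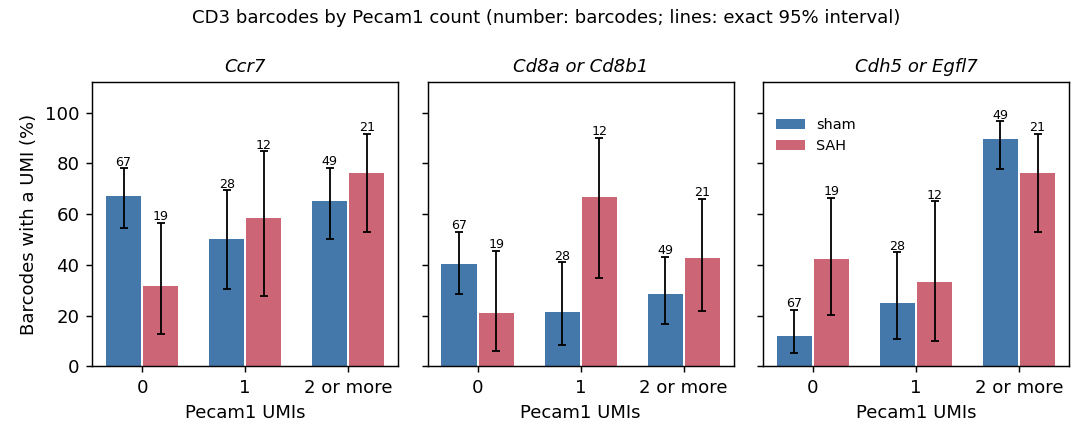
Bars give the percentage of barcodes with a UMI of Ccr7, of Cd8a or Cd8b1, and of Cdh5 or Egfl7, among barcodes with at least 2 CD3 UMIs and none of Prox1 or Cd79a, by Pecam1 UMIs (0, the T cells described here; 1; 2 or more). Lines are exact 95% intervals and numbers are barcodes. Ccr7 and Cd8 are lower in SAH (red) than in sham (blue) barcodes at 0 Pecam1 UMIs and higher at 1.

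Across all genes, 2170 had at least 20 UMIs over both libraries. Of these, 363 (16.7%) were at least 1.5-fold higher and 542 (25%) at least 1.5-fold lower in the SAH T cells, with a median log2 fold of 0.01. Without the deepest sham cell 1855 genes remained, with 360 (19.4%) higher and 363 (19.6%) lower. TMM scaling shifted every log2 fold by -0.17 and gave 244 higher and 699 lower, so 25.9% of genes past the fold were higher against 40.1% as reported. Gene groups below are read beside these shares.

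Genes of the naive and recirculating state were mostly lower in the SAH T cells. Of 14 tested, 2 were at least 1.5-fold higher and 8 lower, with a median log2 fold of -0.75, and the summed level was 0.614-fold [0.541 to 0.696] that of sham. Without the deepest sham cell 0 of the 14 were higher and 9 lower. Ccr7 (mm10 chr11:99144196-99155077), the receptor that guides T cells into the T-cell zone, had 0 to 5 UMIs a cell (median 1) in sham and 0 to 3 (median 0) in SAH T cells. It was present in 45 of 67 and 6 of 19 cells. The Ccr7 level was 334 CPM in sham and 150 CPM in SAH, a fold of 0.450 [0.231 to 0.808]. After thinning to 1500 UMIs a cell, Ccr7 was in 50.8% and 26.3%. With 1 Pecam1 UMI the order was the other way, with Ccr7 in 50% of 28 sham and 58.3% of 12 SAH barcodes.

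Lef1 and Tcf7, transcription factors of naive and early T cells, stood at 371 and 185 CPM (0.498-fold [0.275 to 0.850]) and at 510 and 277 CPM (0.543-fold [0.337 to 0.842]). The deepest sham cell held 25 of the 139 sham Tcf7 UMIs, and without it the fold of Tcf7 was 0.569. Klf2, which drives expression of the egress receptor, had 0 to 26 UMIs (median 5) in a sham and 0 to 8 (median 2) in an SAH T cell. The Klf2 level was 1337 and 543 CPM, a fold of 0.406 [0.293 to 0.552]. Klf2 was 0.764-fold in endothelial barcodes and 0.504-fold [0.406 to 0.620] in B-lymphocyte barcodes (97 sham and 44 SAH, with at least 2 Cd79a UMIs and none of CD3, Pecam1 or Prox1). Satb1, a chromatin organiser of T cells, was at 613 and 358 CPM (0.584-fold [0.385 to 0.861]).

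Other members of this group had intervals that reach 1. S1pr1, the receptor for sphingosine 1-phosphate, was at 154 and 127 CPM (0.824-fold [0.383 to 1.63]). Il7r was at 536 and 416 CPM (0.776-fold [0.523 to 1.12]), detected in 48 of 67 sham cells and 8 of 19 SAH cells. Ly6c2, a surface protein of T-cell subsets, was at 151 and 231 CPM (1.54-fold [0.852 to 2.68]), so members of the naive list did not all lie on one side. B-lymphocyte barcodes had the same list at 0.680-fold [0.605 to 0.763], and endothelial barcodes at 1.06-fold.

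Genes of the memory and effector state were higher in the SAH T cells. Of 11 tested, 8 were at least 1.5-fold higher and 0 lower, with a median log2 fold of 1.5, and the summed level was 2030 CPM in sham and 5650 CPM in SAH (2.78-fold [2.46 to 3.15]). Without the deepest sham cell 6 of the 11 were higher and 0 lower. Without each library's top cell for the list the fold was 2.21 [1.93 to 2.54]. When the gene medians were taken after removing cells with stromal UMIs, which left 47 sham and 8 SAH cells, the median log2 fold was 0.56. Ccl5, a chemokine of memory and cytotoxic T cells, held 24 UMIs in 6 sham cells and 110 UMIs in 4 SAH cells, a fold of 14.4 [9.21 to 23.5]. Of those 110 UMIs, 70 were in 1 cell and 34 in another. Without the first the Ccl5 fold was 5.58 [3.28 to 9.68], and without both it was 0.903 [0.302 to 2.27], so it rested on 2 cells. Leaving out single cells in this way was chosen after seeing the data. Cxcr6 (mm10 chr9:123806475-123811760), a receptor of tissue-homing T cells, was detected in 4 of 67 sham and 6 of 19 SAH cells, with 0 to 3 and 0 to 7 UMIs a cell. The Cxcr6 level was 22.03 and 196 CPM, a fold of 8.92 [3.35 to 27.6]. Of the 6 SAH cells with Cxcr6, 4 had no Cd4 or Cd8 UMI.

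Calcium-binding proteins of the S100 family belong to the same list. S100a4 had 10 UMIs in 1 sham cell and 43 UMIs in 5 SAH cells, a fold of 13.5 [6.70 to 30.2]. S100a6 was detected in 15 of 67 sham and 10 of 19 SAH cells, with a median of 0 and 1 UMI and a maximum of 36 and 28. Its level was 341 and 994 CPM, a fold of 2.91 [2.15 to 3.94]. The S100a6 fold was similar in B-lymphocyte barcodes, at 2.55 [1.73 to 3.79], and was 0.885 in endothelial barcodes. S100a6 was also in 55.8% of sham and 53.3% of SAH endothelial barcodes, whose median depths were 5488 and 5951 UMIs, so its share in T cells is not above that of another cell type. Lgals1, a secreted lectin, was at 180 and 508 CPM (2.83-fold [1.84 to 4.33]). Crip1 was at 635 and 820 CPM (1.29-fold [0.966 to 1.71]), within counting error.

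**Figure D3:**
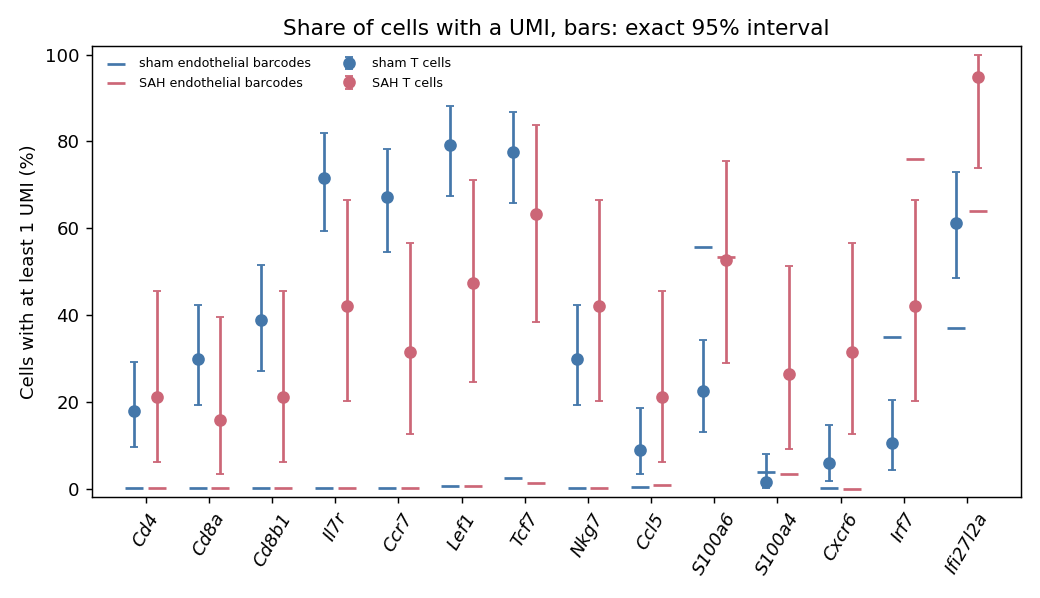
Points give the percentage of T cells with at least 1 UMI of each gene in the sham (blue, n = 67) and SAH (red, n = 19) library, with exact 95% intervals, and dashes give the same share in endothelial barcodes. Ccr7 is in 67.2% of sham and 31.6% of SAH T cells, and Irf7 and S100a6 reach shares in endothelial barcodes that are as high as or higher than in T cells.

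Cytotoxic granule genes rested on 1 SAH cell. That cell, of 5196 UMIs, held 70 of the 110 SAH UMIs of Ccl5, 25 of the 50 of Nkg7, all 21 of Gzmb, 15 of the 25 of Klrd1 and 22 UMIs of Xcl1. It also held 2 UMIs of Ncr1, a receptor typical of natural killer cells, and 23 CD3 UMIs. Only 1 Ptprc UMI was found in it and none of Cd4, Cd8a or Cd8b1. Gzmb, which encodes granzyme B, had no UMI in sham T cells and was at least 22.03-fold higher in the SAH library, taking 3 counts as the sham floor. The natural killer and granule list was 5.52-fold [3.95 to 7.78] higher in sum, of which 70.0% of SAH UMIs came from the top cell, and 2.03-fold [1.24 to 3.26] without the top cells. Nkg7, a granule protein, was less concentrated and was detected in 20 of 67 sham and 8 of 19 SAH cells. Prf1, the gene of perforin, had 1 sham UMI and no SAH UMI.

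Markers of regulatory, follicular helper and type 17 T cells were sparse. Foxp3, the factor that defines regulatory T cells, had 1 UMI in 1 sham cell and none in SAH cells. Cxcr5 had 1 UMI in a sham cell, and Tigit, Lag3, Havcr2, Il10 and Il21 had none in either library. Il17a, the cytokine of type 17 cells, had 3 UMIs in 1 SAH cell. Icos, a costimulatory receptor of activated T cells, was at 103 and 208 CPM (2.02-fold [1.05 to 3.79]), and 1.51-fold [0.669 to 3.21] without each library's top cell. In sum the regulatory list was at 1.48-fold [1.04 to 2.10], the follicular helper and checkpoint list at 1.36-fold [0.949 to 1.93] and the type 17 and innate-like list at 1.44-fold [1 to 2.04]. Without each library's top cell these folds were 1.97 [1.31 to 2.92], 1.13 [0.757 to 1.66] and 1.255 [0.794 to 1.94]. The top cell gave 33.0% of the sham UMIs of the regulatory list and 37.5% of the SAH UMIs of the type 17 list.

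Genes of the receptor complex and T-cell identity list showed 8 of 23 tested at least 1.5-fold higher and 3 lower, with a median log2 fold of 0.19. Zap70, the kinase recruited to the phosphorylated CD3 and zeta chains, was detected in 11 of 67 sham and 10 of 19 SAH cells, at 0 to 2 UMIs a cell in both. The Zap70 level was 47.7 and 162 CPM, a fold of 3.39 [1.48 to 7.83]. Cd2, an adhesion molecule, was at 143 and 358 CPM (2.50-fold [1.51 to 4.11]). Coro1a, an actin regulator of leukocytes, was at 731 and 1283 CPM (1.76-fold [1.38 to 2.22]). Lck, Lat and Cd247 differed by less than counting error, at 1.14-fold [0.650 to 1.94], 1.06-fold [0.633 to 1.73] and 1.02-fold [0.485 to 2.00].

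Activation genes showed no common direction. Cd69, an early activation antigen that retains T cells in the node, was at 404 and 416 CPM (1.03-fold [0.686 to 1.51]) and was present in 41 of 67 and 11 of 19 cells. Of 9 tested activation genes, 3 were at least 1.5-fold higher and 2 lower. Rgs1, which restrains signalling from chemokine receptors, was at 73.4 and 266 CPM (3.62-fold [1.90 to 6.95]). Rgs10, of the same family, was at 316 and 127 CPM (0.402-fold [0.194 to 0.757]). Among integrins, Itgb2, the beta chain of LFA-1, was at 69.8 and 220 CPM (3.15-fold [1.58 to 6.28]), and its alpha chain Itgal at 80.8 and 162 CPM (2.00-fold [0.948 to 4.09]). Of 16 tested chemokine receptor, integrin and egress genes, 9 were higher and 3 lower, with a median log2 fold of 0.64 and a summed fold of 1.04 [0.913 to 1.18].

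Interferon-stimulated genes were higher in the SAH T cells. Of 19 tested, 8 were at least 1.5-fold higher and 2 lower, with a median log2 fold of 0.58. Without the deepest sham cell 16 were tested, with 6 higher and 1 lower. The summed level of all genes of the list was 3591 CPM in sham and 5985 CPM in SAH, a fold of 1.67 [1.495 to 1.86]. A single gene, Ifi27l2a, gave 146 of the 978 sham and 164 of the 518 SAH UMIs of the list. The summed fold without Ifi27l2a was not computed. Per cell, the summed level ran from 501 to 21814 CPM (median 2894) in sham and from 2342 to 16847 CPM (median 4373) in SAH, so the libraries overlap. The top SAH cell gave 27.0% of the SAH UMIs of the list, and without each library's top cell the fold was 1.33 [1.17 to 1.502]. B-lymphocyte barcodes were at 1.68-fold [1.55 to 1.83] and endothelial barcodes at 1.76-fold [1.75 to 1.77]. The list stood at 7217 CPM in sham and 12703 CPM in SAH endothelial barcodes, above the level in T cells.

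Irf7, the transcription factor that amplifies type I interferon production, was detected in 7 of 67 sham and 8 of 19 SAH cells, with at most 2 UMIs a cell in both. The Irf7 level was 29.4 and 139 CPM, a fold of 4.72 [1.77 to 13.3]. Irf7 was in 35.0% of sham and 76.0% of SAH endothelial barcodes, so the T-cell shares are below those of a more abundant cell type. Ifi27l2a (mm10 chr12:103442167-103443680), a small interferon-induced protein, was in 41 of 67 and 18 of 19 cells, with 0 to 20 UMIs (median 1) and 0 to 93 UMIs (median 3). The Ifi27l2a level was 536 and 1895 CPM, a fold of 3.54 [2.81 to 4.45], and 1.89 [1.39 to 2.55] without each library's top cell. Isg15, with 14 sham UMIs and 2 SAH UMIs, was below the minimum of 20 UMIs. Ifi47, an immunity-related GTPase, went the other way at 246 and 104 CPM (0.423-fold [0.185 to 0.851]).

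Promoters of 2 genes of this group are shown because both were higher in the SAH T cells and they differ in the motif searched, 2 copies of GAAA with any 2 bases between them on either strand, a core of the interferon-stimulated response element. Each is the 250 bases before the start site from RefSeq on GRCm38.p6, written 5′ to 3′ on the gene's strand, with capitals for a match. The windows are chr7:141266425-141266674 (minus strand) for Irf7 and chr1:173942493-173942742 (minus strand) for Ifi203, a gene of the interferon-inducible p200 family whose close relatives could share its reads.
Irf7: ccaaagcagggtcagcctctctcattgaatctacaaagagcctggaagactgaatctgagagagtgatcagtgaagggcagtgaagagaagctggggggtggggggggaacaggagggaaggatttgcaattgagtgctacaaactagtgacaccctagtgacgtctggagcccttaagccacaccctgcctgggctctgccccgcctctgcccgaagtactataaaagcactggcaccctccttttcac
Ifi203: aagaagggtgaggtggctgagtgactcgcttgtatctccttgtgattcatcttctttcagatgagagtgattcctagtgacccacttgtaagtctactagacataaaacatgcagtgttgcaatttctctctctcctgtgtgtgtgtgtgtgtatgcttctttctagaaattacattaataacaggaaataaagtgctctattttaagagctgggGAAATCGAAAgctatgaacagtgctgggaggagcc
In the window of 300 bases that ends 50 bases after the start site shown, Ifi203 had 1 match, at position -35, and Irf7 had none. Ifi203 has 2 such windows and Irf7 has 1. The Ifi203 window shown was picked because it held a match, and its other window held none. Of 32851 such windows of all genes 3.44% held a match, and of 20 windows of the 14 tested interferon genes with an entry 30% did. These 5 genes were Bst2, Ifi203, Igtp, Gbp7 and Trim30a. A match describes the letters in the window and no binding. Ifi203 was at 125 CPM in sham and 266 CPM in SAH T cells (2.13-fold [1.20 to 3.72]) and was present in 25 of 67 and 12 of 19 cells.

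Antigen presentation by MHC class I, which interferon also raises, showed a smaller difference with no single direction. Of 16 tested, 4 were at least 1.5-fold higher and 1 lower, with a median log2 fold of 0.10. Without the deepest sham cell 3 were higher and 0 lower, with a median of 0.41. The median was above 0 in 17 of 18 alternatives, and -0.08 with TMM scaling. Psmb8, a catalytic subunit of the immunoproteasome, was at 253 and 659 CPM (2.60-fold [1.80 to 3.75]). B2m, the light chain of class I molecules, was at 1329 and 1953 CPM (1.47-fold [1.22 to 1.77]). H2-D1 was at 1113 and 1652 CPM (1.49-fold [1.21 to 1.82]), while H2-K1 was at 2864 and 1987 CPM (0.694-fold [0.585 to 0.820]). The 2 heavy chains are close in sequence, so reads could be divided between them unevenly.

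Immediate early genes, which also respond to tissue digestion, were partly lower. Of 18 tested, 2 were at least 1.5-fold higher and 7 lower, with a median log2 fold of -0.25. Fos and Jun, partners in the AP-1 complex, were at 701 and 312 CPM (0.445-fold [0.286 to 0.668]) and at 345 and 92.4 CPM (0.268-fold [0.112 to 0.550]). The deepest sham cell held 29.3% of the sham Fos UMIs. Without each library's top cell the Fos fold was 0.469 [0.284 to 0.739]. Junb was at 1535 and 2010 CPM (1.31-fold [1.09 to 1.57]). The same list was 0.885-fold in T cells, 0.872-fold in B-lymphocyte barcodes and 0.874-fold in endothelial barcodes. Jun was not lower in the other classes, at 1.08-fold [0.812 to 1.43] in B-lymphocyte and 1.12-fold in endothelial barcodes. Fos was lower in both, at 0.758-fold and 0.906-fold. Glucocorticoid-responsive genes showed 0 of 7 tested higher and 3 lower, with a median log2 fold of -0.35. Tsc22d3, the glucocorticoid-induced leucine zipper, was in 46 of 67 and 7 of 19 cells at 375 and 116 CPM (0.309-fold [0.144 to 0.591]). It was also lower in B-lymphocyte barcodes (0.579-fold [0.433 to 0.764]) and endothelial barcodes (0.711-fold).

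Cell-cycle genes were 0.506-fold [0.397 to 0.637] in sum, with 4 of 5 tested at least 1.5-fold lower and 0 higher, but this rested on the sham cells with Rag1. These 4 cells held 327 of the 529 sham UMIs of the list, and without them the levels were 919 and 982 CPM, a fold of 1.07 [0.820 to 1.38]. Without the deepest sham cell alone 2 of 4 tested were lower. Mki67 or Top2a was detected in 2 sham and 2 SAH cells. Nuclear genes of oxidative phosphorylation were at 1.17-fold [1.07 to 1.27] in sum, with 5 of 24 higher and 3 lower. Genes of the mitochondrial genome were at 0.775-fold [0.748 to 0.802], beside the lower mitochondrial share of the SAH cells given above. Translation factors were at 0.790-fold [0.754 to 0.828], with 1 of 20 higher and 2 lower. The plot of gene lists shows the folds with and without the top cells.

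**Figure D4:**
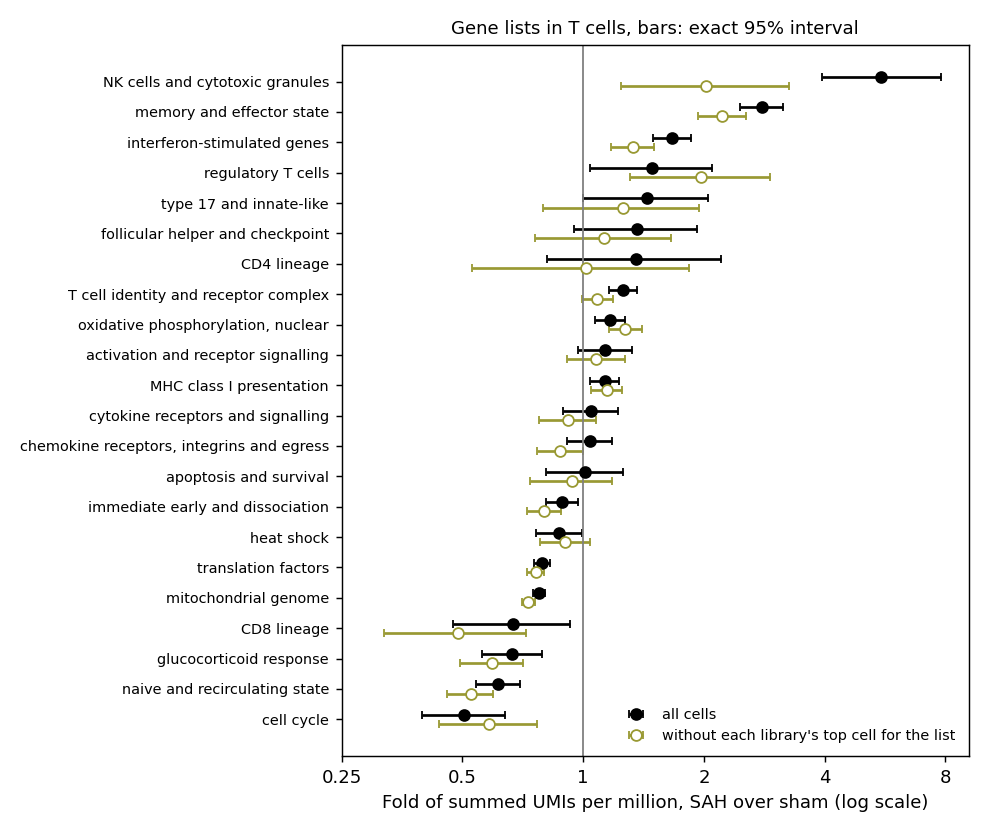
Points give the fold of each list's summed CPM in T cells, SAH over sham, on a log axis, with exact 95% intervals (filled, all cells; open, without each library's top cell for the list). The naive list lies at 0.614 and the memory list at 2.78, and the natural killer and granule list moves from 5.52 to 2.03 without the top cells.

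The genes with the largest folds, among those of at least 100 CPM and a UMI in at least 10 cells of the higher library, were led by Gstp1, a glutathione transferase, at 14.7 and 162 CPM (11.0-fold [3.46 to 45.9]). Gstp1 has a near-identical neighbour, so its reads are uncertain, and it was 4.05-fold higher in endothelial barcodes. Other genes among the 12 highest were Zdhhc18 (6.82-fold), Pcf11 (3.37-fold), the adaptor Sh3kbp1 (3.31-fold), the actin-bundling protein Lcp1 (3.24-fold [1.95 to 5.40]) and Sdf4 (3.15-fold), besides Ifi27l2a, Zap70, Itgb2, Ptprcap and S100a6 above. Lcp1 was 0.934-fold in endothelial and 0.963-fold [0.598 to 1.52] in B-lymphocyte barcodes.

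Among the 12 lowest, several were set by the deepest sham cell. Ctsl, a lysosomal protease, had 551 sham and 2 SAH UMIs, of which 506 lay in that cell, and its fold of 0.0114 became 0.120 without it. Cstb, a cysteine protease inhibitor, had 327 of 346 sham UMIs there, and its fold of 0.0819 became 1.28 without it. Of the 36 sham UMIs of Ing1, 16 lay in the same cell, as did 15 of the 29 of Siva1, 11 of the 35 of Pa2g4 and 35 of the 98 of Gsn. Dcn, a proteoglycan of fibroblasts, had 142 of its 228 sham UMIs in 1 other cell. Tmpo, a protein of the nuclear envelope, had 36 sham UMIs in 18 cells and none in SAH, at least 3.81-fold lower, or at least 2.23-fold lower without the cells with Rag1. Ndrg3 had 39 in 18 cells and none in SAH, at least 4.13-fold lower, or at least 2.59-fold lower without the deepest sham cell, which held 18 of the 39. Stmn1, a microtubule regulator of dividing cells, had 83 and 2 UMIs (0.0758-fold [0.00903 to 0.283]), and 69 of the 83 lay in the cells with Rag1. Without those cells the Stmn1 fold was 0.363 [0.0400 to 1.58], and in endothelial barcodes it was 0.481. Hnrnpul1 and Sarnp, RNA-binding proteins, had a UMI in 23 and 31 sham cells, and in 1 and 2 SAH cells.

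Genes more abundant in endothelial or B-lymphocyte barcodes than in T cells were set apart. The highest of these were AY036118 (3.78-fold), Gpx1 (2.87-fold) and Ccl21a (2.81-fold [1.57 to 4.998]). Ccl21a was 0.337-fold when barcodes with 1 Pecam1 UMI were included and 22.6-fold when 1 CD3 UMI was enough. The lowest were Col1a1, with 28 sham UMIs and none in SAH (at least 2.97-fold lower, or 1.10-fold without the 1 sham cell that held 18 of the 28), Spint2 (0.0617-fold) and Cd63 (0.0749-fold).

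**Figure D5:**
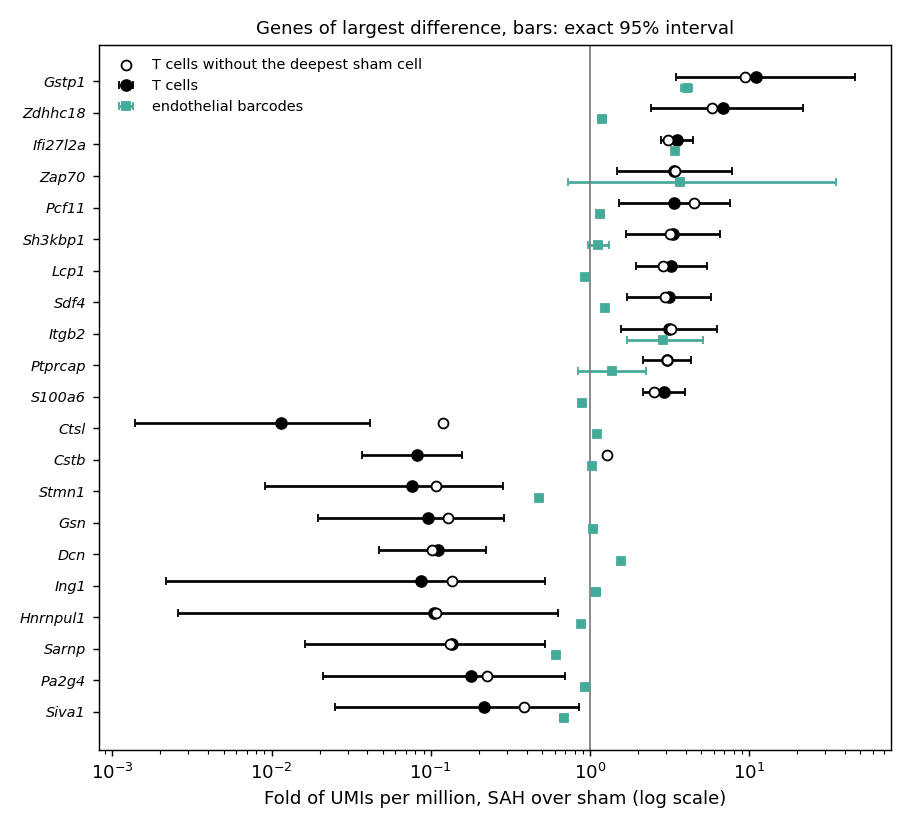
Points give the fold of CPM, SAH over sham, on a log axis for genes of largest difference that had SAH UMIs, with exact 95% intervals (filled circles, T cells; open circles, T cells without the deepest sham cell; squares, endothelial barcodes). Gstp1 and Ifi27l2a are also high in endothelial barcodes, and Cstb crosses 1 without the deepest sham cell.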

How the data were processed

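The authors deposited an unnormalised UMI count for each gene in each barcode. Cell Ranger 5.0, STAR, the build mm10 and Seurat 3.0.2 are named in the submitters' processing notes. Counting software 5.0.0 is given in the matrix headers, and per the labels molecules were tagged at the 5′ end. The annotation release and the counting of introns are not given in the sources used here.

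Coordinates of genes, whole gene bodies, are from the GENCODE annotation of mm10. Counts of entries that share a symbol were summed. UMIs were summed over the T cells of each library, divided by the total and compared as a fold with an exact conditional binomial 95% interval. Shares have exact Clopper-Pearson 95% intervals. Genes needed 20 UMIs over both libraries to enter the counts past 1.5-fold (called tested, though no test was made). Depth limits precision most in the SAH library, where 3 counts are 34.7 CPM, against 11.0 CPM in sham. Doublets were called with Scrublet in scanpy 1.11.5 at an expected rate of 0.1 and not removed, since none was a T cell. Python 3.11.15, numpy 2.4.6, scipy 1.17.1, R 4.3.3 and edgeR 4.0.16 (only for TMM factors) were used, and the interval and fold code was tested on simulated data.

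Named genes were the 12 highest and 12 lowest folds among genes of at least 100 CPM with a UMI in at least 10 cells of the higher library (0.5 counts added for ranking only), without ribosomal, mitochondrial, haemoglobin and predicted genes. Genes with a higher level in endothelial or B-lymphocyte barcodes were set apart, with 3 named in each direction. Members of the lists, and the 15 genes of highest ratio over other barcodes, were also eligible. T cells and gene lists were chosen with earlier results of these data known. Use of receptor V genes was planned and was not analysed here. Some genes that these rules select are not reported here.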

Additional observations from a re-analysis of the deposited data

How the results depend on the processing

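With a mitochondrial limit of 5% (14 cells in each library), 132 genes were at least 1.5-fold higher and 82 lower, the interferon fold was 1.49, the sham T-cell share 0.222%, and Cstb and Dcn reversed to 2.10-fold and 5.50-fold. Thinning to 1500 UMIs gave 122 higher and 146 lower, a minimum of 50 UMIs per gene 114 and 152, a minimum of 5 UMIs 1634 and 2311, and a fold of 2 gave 144 and 292. In these settings fewer or more genes could pass by construction. Without the 5 deepest cells per library 259 were lower, the interferon fold was 1.40, Cstb 1.99-fold and Dcn 2.87-fold. Without the cells with Rag1, an alternative chosen after seeing the data, 316 were lower and Cstb was 1.34-fold, and without the deepest sham cell alone Cstb was 1.28-fold. The interferon fold was 1.48 both with TMM factors and with equal weight per cell. The sham T-cell share was 0.454% with at least 1000 genes, 0.421% without cells with stromal UMIs and 0.852% with up to 1 Pecam1 UMI, and the SAH share was 0.0698% and 0.271% in the last 2. With 1 CD3 UMI enough, Dcn was 1.77-fold and Cd63 1.75-fold. With up to 1 Pecam1 UMI, also chosen after seeing the data, Ccl21a was 0.337-fold and the CD8 median log2 fold 0.0039, against -1.32 as reported and below 0 in the other 15 alternatives. The egress and integrin median, 0.64 as reported and above 0 in 17 of 18 alternatives, was -0.23 with at least 50 UMIs per gene. The cause of these shifts was not tested beyond the number of cells or genes each setting left. Of 479 values for named genes 422 moved by less than their counting interval, 48 by more without a change of direction, and 9 reversed. The naive median stayed below 0 and the memory and interferon medians above 0 in all 18 alternatives run, at -0.96 to -0.33, 0.56 to 1.97 and 0.29 to 0.69. Among the alternatives counted here, removal of predicted doublets took out no T cell. It therefore repeated the reported gene and list values and could not differ. No paired analysis was possible because each group is 1 library.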

Other observations

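Barcodes with CD3 and Pecam1 UMIs outnumbered the T cells in both libraries. Pecam1 removed 55.3% of sham and 66.1% of SAH barcodes with at least 2 CD3 UMIs. Those with exactly 1 Pecam1 UMI resembled T cells in depth, with medians of 3215 and 3662 UMIs, and Ptprc was in 92.9% of the sham and 100% of the SAH ones. Il7r was in 64.3% of the sham and 83.3% of the SAH barcodes of this kind, against 71.6% and 42.1% of T cells without Pecam1. Those with 2 or more had medians of 10115 and 6712 UMIs. The lower Cd8 and Ccr7 shares of the SAH library at 0 and the higher ones at 1 rest on 19 and 12 SAH barcodes, in that order.

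In 2 sham T cells, of 9665 and 6509 UMIs, Col1a2 had 13 and 4 UMIs, and these held the highest fibroblastic shares. T cells with Cxcr6 had median depths of 4024 UMIs in sham and 5583 in SAH, above the medians of all T cells.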
